A study of Mus musculus with 3 samples.

Results

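The genes described here are 7 ligands of the CXC chemokine family, Cxcl14, Cxcl12, Cxcl1, Cxcl2, Cxcl5, Cxcl10 and Cxcl16, and the chemokine receptor gene Cxcr4. They were taken by gene symbol, whatever their level, and are 8 of the 32287 features of a single-cell count matrix. All 8 were detected, with between 221 UMIs (Cxcl5) and 4852 UMIs (Cxcl14) in the cells kept. A UMI (unique molecular identifier) marks 1 captured transcript. The library is whole mouse uterus at pregnancy day 7.5, dissociated with trypsin and sequenced from the 3' end in droplets. The females were kept with littermates until 8 weeks of age and mated with stud males, and the labels of this library name no genotype, strain or number of animals. The series has 3 single-cell samples. The other 2, 1 with Prl8a2-iCre and Sun1-GFP and 1 with Sun1-GFP but no Cre, were left out and are not analysed here.

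CXC chemokines are small secreted proteins that bind G protein-coupled receptors and set the movement of leukocytes and other cells along gradients. Cxcl1, Cxcl2 and Cxcl5 act through Cxcr2 and attract neutrophils, Cxcl10 is an interferon-inducible ligand of Cxcr3, and Cxcl16 is a membrane-anchored ligand of Cxcr6 that proteases can release. Cxcl12 is the ligand of Cxcr4 and is also bound by the scavenging receptor Ackr3, while the receptor use of Cxcl14 is less settled. In the pregnant uterus chemokines are known for their part in which leukocytes enter the decidua, the tissue that the stroma forms around the implanted embryo.

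The matrix held 16848794 UMIs over 2775 barcodes, and 1812 cells with a median of 4509.5 UMIs were kept. They divided into 19 clusters, written c0 to c18, of which 18 fell into 10 classes named from marker genes. The classes are undifferentiated stroma (417 cells), epithelium (372), NK cell and innate lymphoid (310), mononuclear phagocyte (270), decidual stroma (148), mesothelium (88), endothelium (65), T cell (41), pericyte (37) and B cell (23). Chemokine and receptor genes took no part in the clustering. The NK-like c2 and the epithelial c14 had none of their own class's markers and 1 marker of another class among their 10 leading genes, so they are also given by number. Without them the NK and innate lymphoid class had 142 cells and all 8 genes lower than in the rest, and epithelium had 324 cells, with Cxcl1 at 237 CPM (UMIs of a gene per 1000000 UMIs of the group) and Cxcl5 at 29.3 CPM. The 8 decidual markers summed to 4183 CPM in the decidual class and 531 in the undifferentiated class, with Prl3c1 at 0 in both, whereas the 10 undifferentiated markers, mostly collagen genes, summed to similar levels in both (5236 and 5325). Cells of 1 library are not replicates, so no test was made. The exact 95% intervals reflect the error of counting alone, and nothing here measures the spread between animals.

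The chromosomal positions are from GENCODE on GRCm38. Cxcl5 (chromosome 5, 90759360 to 90761624), Cxcl1 (90891241 to 90893115) and Cxcl2 (90903871 to 90905938) lie on the plus strand of chromosome 5 in a group that also holds Ppbp, Pf4, Cxcl3 and Cxcl15 between Cxcl5 and Cxcl1, and Cxcl10 (92346638 to 92348889, minus strand) lies on the same chromosome. Cxcl10 overlaps Art3 and Cxcl16 (chromosome 11, 70453983 to 70459984) overlaps Zmynd15, each on the opposite strand. Cxcl14 is on chromosome 13 (56288643 to 56296551), Cxcl12 on chromosome 6 (117168535 to 117181367) and Cxcr4 on chromosome 1 (128588199 to 128592293). Annotated Cxcl2 exons share 161 stretches of 31 bases with Cxcl3, which is 7.59% of those of Cxcl2. Cxcl3 had 37 UMIs in kept cells against 2427 of Cxcl2. No such stretch is shared between Cxcl1 and Cxcl2.

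Upstream sequences are shown for Cxcl1, Cxcl2 and Cxcl10, whose levels were highest in epithelium and phagocytes, and for Cxcl14, whose level was highest in stroma. Each runs from 220 to 31 bases before the RefSeq start on GRCm38.p6, 5′ to 3′ on the strand of the gene. Capitals mark matches to a kappaB-like motif, bound by NF-kB factors and searched as GGGA, any base, TT, any base and CC, or to an interferon response-like motif, searched as GAAA, any pair of bases and GAAA, both on either strand.
Cxcl1 (chr5:90891025-90891214, plus strand): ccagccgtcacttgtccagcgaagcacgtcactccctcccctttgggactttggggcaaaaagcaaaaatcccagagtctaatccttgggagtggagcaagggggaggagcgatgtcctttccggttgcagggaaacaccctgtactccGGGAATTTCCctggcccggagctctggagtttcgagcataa
Cxcl2 (chr5:90903679-90903868, plus strand): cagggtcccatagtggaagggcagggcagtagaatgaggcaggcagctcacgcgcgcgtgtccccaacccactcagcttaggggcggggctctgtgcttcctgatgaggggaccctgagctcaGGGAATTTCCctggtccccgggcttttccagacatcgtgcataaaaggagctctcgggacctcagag
Cxcl10 (chr5:92348920-92349109, minus strand): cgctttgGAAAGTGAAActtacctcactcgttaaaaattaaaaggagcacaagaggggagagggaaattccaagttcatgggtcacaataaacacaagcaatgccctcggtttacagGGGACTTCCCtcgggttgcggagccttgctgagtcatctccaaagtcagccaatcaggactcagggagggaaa
Cxcl14 (chr13:56296582-56296771, minus strand): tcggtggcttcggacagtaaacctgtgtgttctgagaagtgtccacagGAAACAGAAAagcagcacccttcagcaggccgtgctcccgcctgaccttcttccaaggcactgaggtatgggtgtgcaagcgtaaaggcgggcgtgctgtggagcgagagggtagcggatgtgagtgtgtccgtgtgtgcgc

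Cxcl1 and Cxcl2 hold the same 10 letters, GGGAATTTCC, at 71 and 97 bases before the start. Cxcl10 holds GGGACTTCCC at 103 bases and GAAAGTGAAA at 213 bases before it. Of 32851 upstream windows of 250 bases in the RefSeq table, 0.98% hold the kappaB-like letters and 2.98% the interferon response-like letters. Cxcl14 holds 1 interferon response-like match, GAAACAGAAA, at 172 bases and no kappaB-like match. The windows of Cxcl12 and Cxcr4 hold neither motif, and those of Cxcl5 and Cxcl16 were not analysed here. Also searched were a TATA box (TATAAA, 12.4% of all windows), a GC box (GGGCGG, 32.7%) and a progesterone response-like motif (0.387%). Of the 6 windows, that of Cxcr4 holds TATA and GC box letters, those of Cxcl12 and Cxcl2 hold GC box letters, and none holds the progesterone response-like letters. A match is a description of letters and not evidence of a bound site.

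The 8 genes fell into distinct cell classes. Cxcl14 lay mainly in stroma, with 78.3% of its UMIs in decidual and 16.2% in undifferentiated cells. Cxcl12 lay in endothelium (57.1%) and undifferentiated stroma (33.3%). Cxcl1 and Cxcl5 lay mainly in epithelium (81.2% and 96.4%). Cxcl2, Cxcl10, Cxcl16 and Cxcr4 lay mainly in mononuclear phagocytes (76.5%, 68.1%, 57.5% and 67.5%). Epithelium held the next largest share of the 3 ligands, and NK and innate lymphoid cells that of Cxcr4 (18.5%). Such shares also follow the UMIs a class holds. Of 14622717 UMIs kept, epithelium held 5102937, NK and innate lymphoid cells 3805000 and phagocytes 1247412. By level, Cxcr4 was lower in NK and innate lymphoid cells (35.2 CPM) than in B cells (436) or T cells (159).

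**Figure D1:**
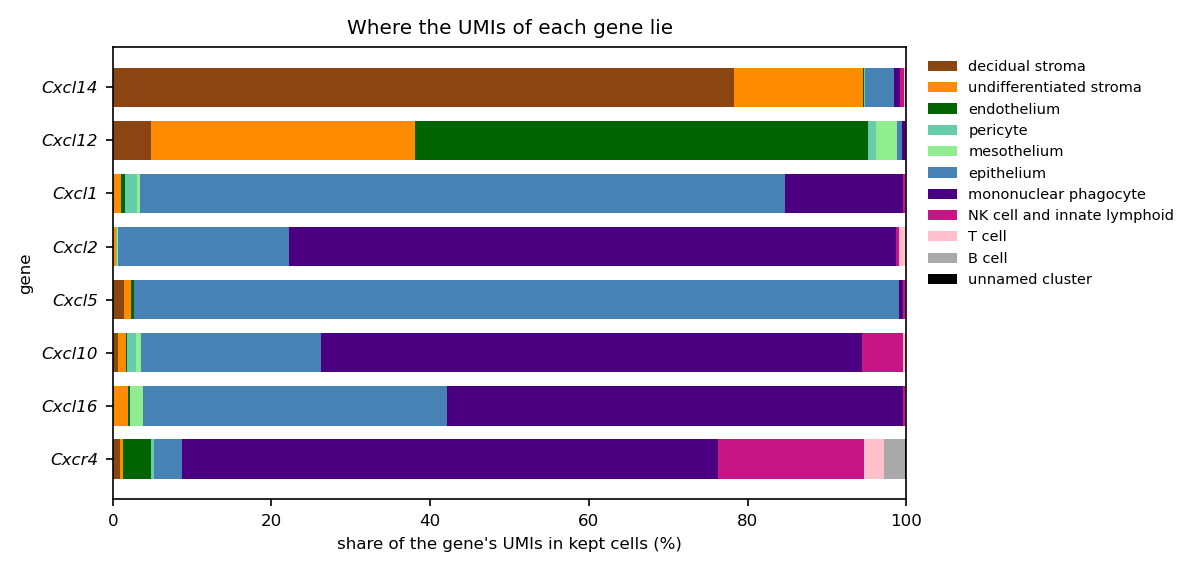
Share of the UMIs of each gene (horizontal axis, percent of its UMIs in kept cells) by cell class, 1 bar per gene. Stroma holds nearly all of the Cxcl14 bar, epithelium nearly all of the Cxcl5 bar, and phagocytes most of the Cxcl2, Cxcl10, Cxcl16 and Cxcr4 bars.

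Each class was then set against all other kept cells. Calls of higher or lower needed a 2-fold difference, 50 UMIs in the 2 groups together and an interval of the ratio that excludes 1. Mononuclear phagocytes had 4 of the 8 genes called higher (Cxcl2, Cxcl10, Cxcl16 and Cxcr4), where 11.1% of all 12179 genes with enough UMIs were. Epithelium had 2 (Cxcl1 and Cxcl5), against 11.4% of all genes. Decidual stroma had 1 (Cxcl14, 9.50% of all genes), endothelium 1 (Cxcl12, 13.8%), undifferentiated stroma 1 (Cxcl12, 19.8%), B cells 1 (Cxcr4, 6.81%) and T cells 1 (Cxcr4, 7.88%). NK and innate lymphoid cells, mesothelium and pericytes had none, where 11.6%, 14.8% and 10.9% of all genes were called higher.

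Most classes had most of the 8 genes called lower than in the rest. That held for 7 genes in decidual stroma (24.7% of all genes called lower), 7 in NK and innate lymphoid cells (34.1%) and 7 in mesothelium (16.5%). It held for 6 in endothelium (15.1%), 6 in undifferentiated stroma (24.2%) and 5 in pericytes (11.7%). In T cells 4 genes were called lower (7.64% of all genes), in B cells 4 (3.54%), in epithelium 3 (27.8%) and in phagocytes 3 (30.2%). The median log2 ratio of the 8 genes was 2.38 in phagocytes, where that of all genes was -0.46, and -3.80 in decidual stroma, where that of all genes was -0.27. A gene whose UMIs lie in 1 class is low against the rest in every other class, so these counts are not independent of each other.

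**Figure D2:**
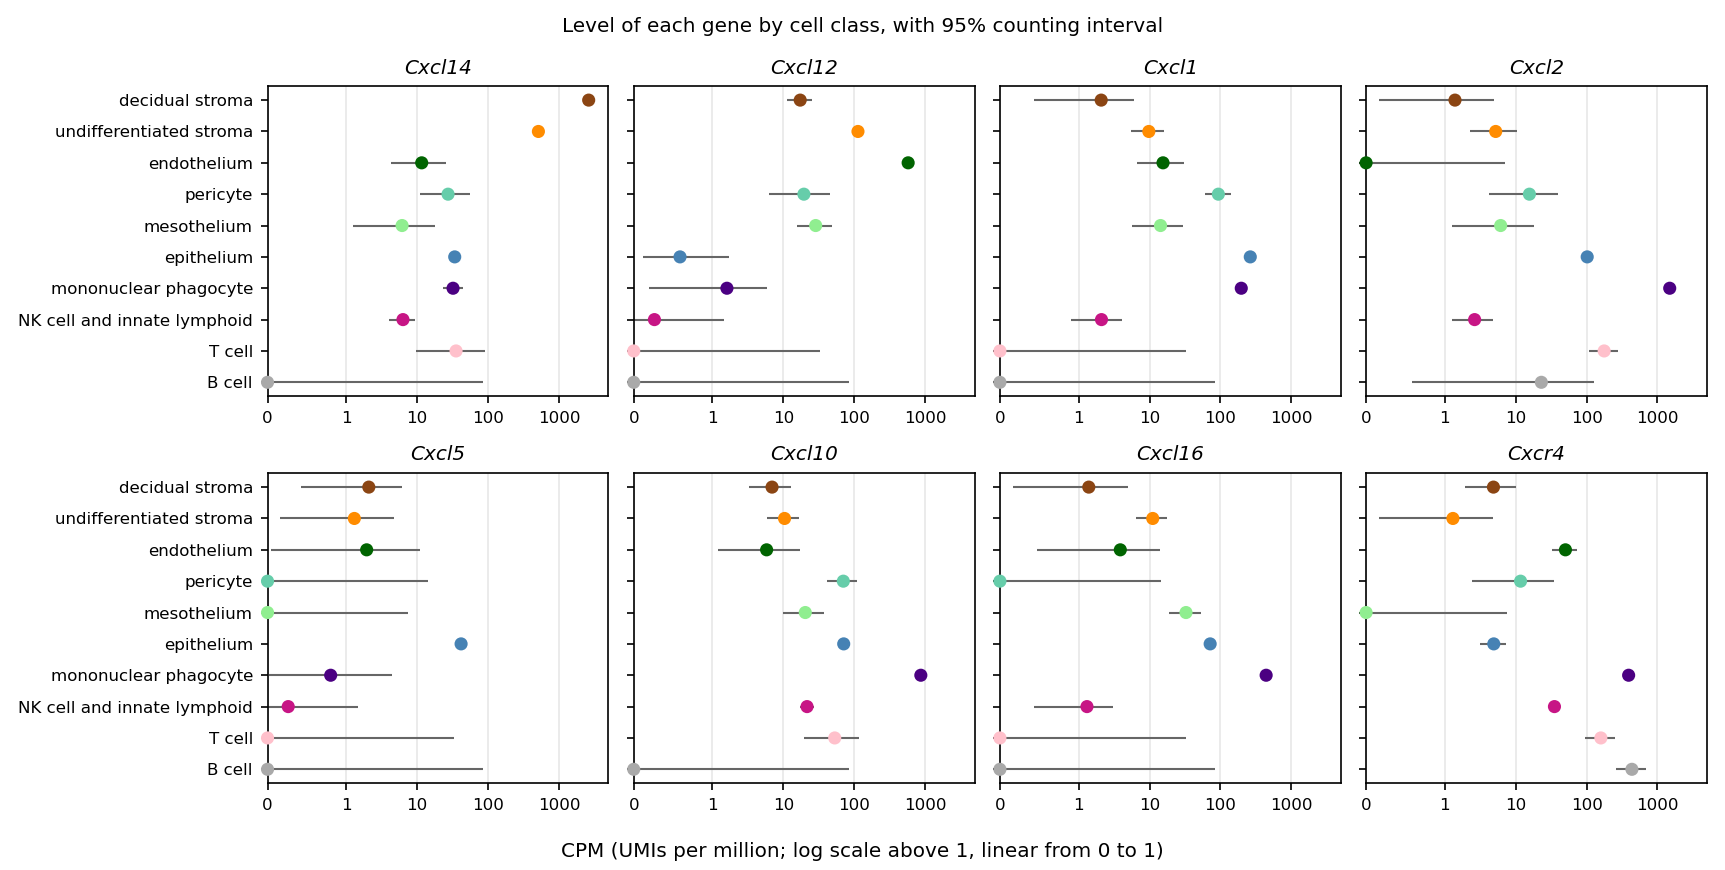
Level of each gene (horizontal axis, CPM, log scale above 1 and linear below) in the 10 cell classes, with exact 95% counting intervals as lines. Cxcl14 peaks in decidual stroma at 2633 CPM, Cxcl12 in endothelium at 577 CPM, and Cxcl2, Cxcl10 and Cxcl16 in mononuclear phagocytes.

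Cxcl14, a chemokine carried by epithelium and stroma in many tissues, was the one of the 8 with its highest level in decidual stroma. It stood at 2633 CPM (2550 to 2718) in decidual and 514 CPM (479 to 551) in undifferentiated stroma. The other classes held at most 35.4 CPM (T cells, 4 UMIs). In the order below undifferentiated stroma, no 2 neighbouring classes differed beyond counting error: T cells (35.4), epithelium (33.9), phagocytes (32.1), pericytes (27.3), endothelium (11.6), NK and innate lymphoid cells (6.31), mesothelium (6.13) and B cells (0 UMIs, which allows up to 68.9 CPM). Classes further apart in that order could differ. The intervals of epithelium (29.0 to 39.3) and phagocytes (22.9 to 43.7) lay above that of NK and innate lymphoid cells (4.04 to 9.39). The unnamed cluster c12 (41 cells, led by Igf2bp1 and H19) held 7 UMIs, or 97.9 CPM (39.4 to 202).

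The stromal difference in Cxcl14 was seen in each pair of clusters. The decidual cluster c1, led by genes such as Tdo2 and Bmp2, held 2997 CPM (2890 to 3107), and the decidual cluster c16, led by Rbp4 and Cyp26b1, held 1852 CPM (1729 to 1980). None of the 10 leading genes of c16 is a decidual marker, and its decidual markers summed to 2046 CPM against 5178 in c1. The undifferentiated clusters c5 and c4 held 569 CPM (528 to 613) and 300 CPM (243 to 367). Decidual over undifferentiated stroma gave a ratio of 5.13 (4.75 to 5.54). In this comparison Cxcl14 and Cxcl12 alone had 50 UMIs or more. Cxcl14 was called higher, as were 8.75% of 7455 genes, and Cxcl12 was called lower, as were 18.3%. The median log2 ratio over all 7455 genes was -0.31.

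Transcripts of Cxcl14 were found in most decidual cells, but in uneven amounts. At least 50% of the Cxcl14 UMIs of c1 lay in 7 of its 77 cells, 1 of which held 405. In c16 that share lay in 9 of 71 cells. The mean over cells of per-cell CPM in decidual stroma was 1844, against 2633 from the summed counts. In c1 the level per cell ran from 0 to 10171 CPM with a median of 1376, and in c16 from 0 to 5413 with a median of 1104. In c5 it ran from 0 to 3873 with a median of 355, and in c4 from 0 to 2729 with a median of 0. Depth differed, at a median of 9510 UMIs in c1, 5319 in c16, 4590 in c5 and 1833 in c4, and a shallow cell more easily shows 0. With each cell thinned to 2000 UMIs, a UMI was found in 79.0%, 81.2%, 51.2% and 37.5% of cells of c1, c16, c5 and c4. At least 1 UMI was found in 93.2% of decidual and 57.3% of undifferentiated cells, at median depths of 6840 and 3302 UMIs. With each cell thinned to 2000 UMIs the shares were 80.2% (72.3 to 86.6) of 131 cells and 48.4% (42.7 to 54.1) of 310 cells, with 17 and 107 shallower cells left out. The NK-like cluster c6, where the gene should be absent, had a UMI in 12.0% of cells at a median of 18706 UMIs, and 1.42% after thinning. The stromal shares lie far above that background.

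RNA quality moved with the decidual class. The median share of mitochondrial UMIs was 12.2% in decidual and 4.29% in undifferentiated cells. With cells of at most 10% mitochondrial UMIs the ratio of Cxcl14 was 6.85. Those cells were clustered and named anew, into 180 decidual and 267 undifferentiated cells, so the classes were not the same cells. With mitochondrial UMIs left out of the totals the ratio was 5.40. Without the cell with the most UMIs in each class it was 4.89.

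**Figure D3:**
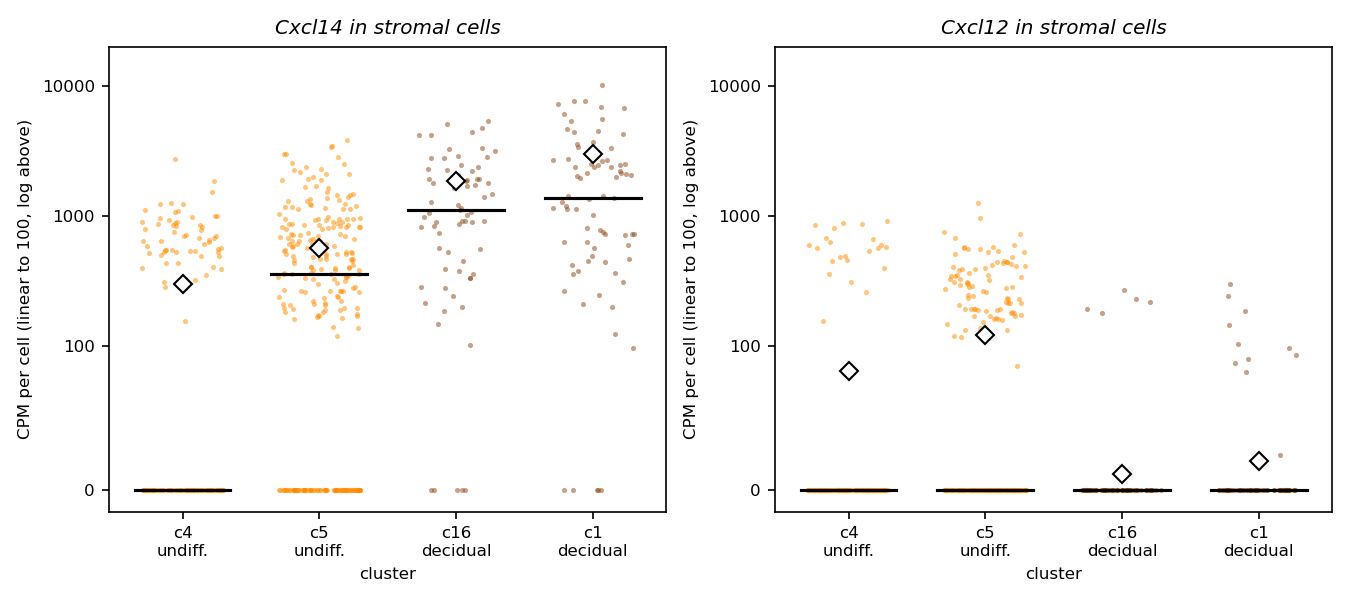
Cxcl14 (left) and Cxcl12 (right) in single stromal cells, in CPM per cell (vertical axis, linear to 100 and log above), for 2 undifferentiated (c4, c5) and 2 decidual (c16, c1) clusters. Points are cells, black lines the median over cells and white diamonds the level of the summed counts. Cxcl14 medians are 0, 355, 1104 and 1376 CPM, at median depths of 1833, 4590, 5319 and 9510 UMIs, and most decidual cells have no Cxcl12.

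Cxcl14 also differed between epithelial clusters, at lower levels than in stroma. The glandular cluster c0, whose leading genes include the gland markers Prss28 and Prss29 and in which 4 of 6 gland markers were found in at least 10% of cells, held 164 CPM (130 to 205), while the other epithelial clusters held 15.6 to 37.6 CPM. The ratios of c0 over c7, c8, c9 and c14 were 4.36 (2.36 to 8.79), 7.77 (5.43 to 11.2), 10.5 (5.98 to 19.6) and 9.33 (5.15 to 18.3). Of the genes tested in those comparisons, 26.4%, 9.02%, 9.58% and 7.62% were called higher in c0. A UMI of Cxcl14 was found in 22 of the 54 c0 cells, and without the cell that held 25 of the 78 UMIs the level of c0 was 117 CPM.

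Cxcl12, the Cxcr4 ligand that holds leukocytes and progenitor cells in their niches, showed the reverse stromal pattern. Its level was 577 CPM (513 to 646) in endothelium, 113 (97.2 to 132) in undifferentiated stroma and 17.3 (11.2 to 25.6) in decidual stroma. Decidual stroma was 6.55-fold lower (4.29 to 10.4) than undifferentiated stroma. Both undifferentiated clusters (c4 82.2 CPM, c5 122) lay above both decidual ones (c1 20.3, c16 10.9). Mesothelium (28.6), pericytes (19.5) and decidual stroma could not be ordered, and the remaining classes held 0 to 3 UMIs each.

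The endothelial level of Cxcl12 came from a minority of cells. Of 65 endothelial cells 20 held a UMI (30.8%, median depth of the class 6764 UMIs), and 1 cell held 129 of the 298 UMIs. Without it the level was 338 CPM, still above every other class. In epithelium, which should lack the gene, 0.538% of cells held a UMI at a median depth of 6494. The 20 endothelial cells with Cxcl12 and the 45 without it had like levels of the 10 endothelial markers (6645 and 7384 CPM in sum) and differed in the 6 lymphatic markers (60.1 and 1179 CPM in sum). The lymphatic markers Lyve1, Mmrn1, Reln and Pdpn were at 0 in the cells with Cxcl12, and none was at 0 in those without it. How many of the 45 cells carried these markers was not counted, so a few cells could hold most of the sum. The median depth was 6250 UMIs in cells with Cxcl12 and 6950 in those without it. The NF-kB and inflammatory genes listed further on summed to 1430 and 303 CPM. The part of these genes in the level of Cxcl12 was not tested. Ackr3, which removes Cxcl12 from the tissue, was called higher in decidual than in undifferentiated stroma, at 83.8 against 35.9 CPM (ratio 2.34, 1.69 to 3.28), the opposite direction to its ligand.

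**Figure D4:**
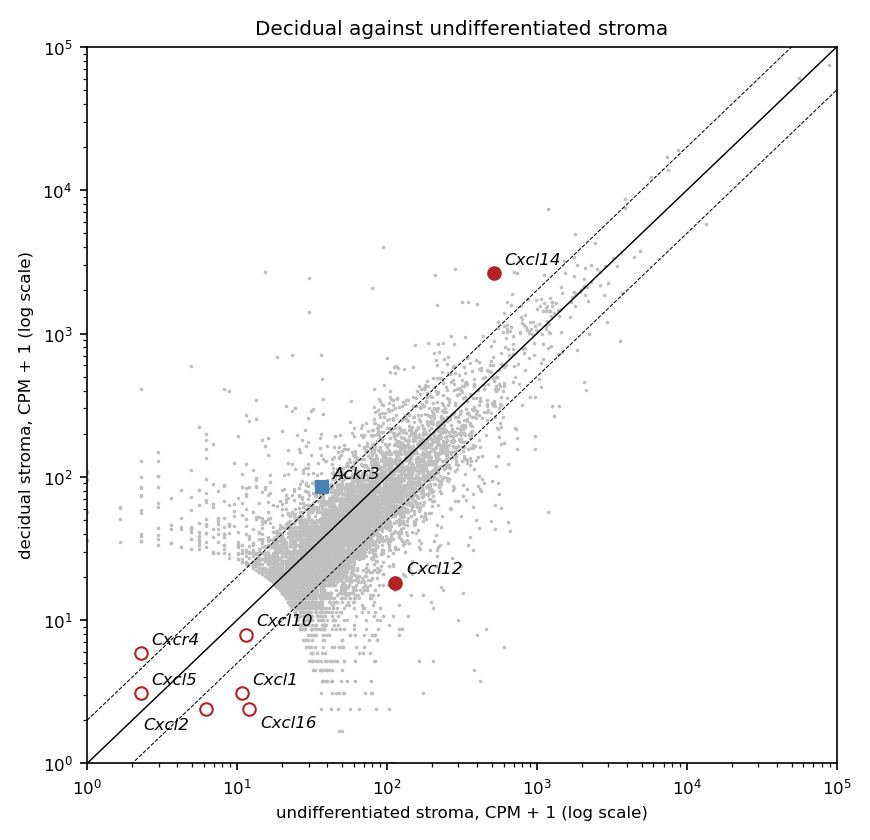
Level in decidual (vertical) against undifferentiated stroma (horizontal), both as CPM + 1 on log axes, for all 7455 genes with 50 or more UMIs (grey). Filled red points are Cxcl14 and Cxcl12, open red points the other 6 genes, which have fewer than 50 UMIs there, the blue square is Ackr3, and dashed lines mark 2-fold; Cxcl14 lies above and Cxcl12 below the dashed lines.

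Cxcl1, a neutrophil attractant, had 81.2% of its UMIs in epithelium and was also high in 1 phagocyte cluster. Its level was 264 CPM (250 to 278) in epithelium, 197 (173 to 223) in phagocytes and 93.6 (60.0 to 139) in pericytes, each step larger than counting error (ratios 1.34 and 2.11). Endothelium followed at 15.5 CPM, and the other classes held less. The phagocyte value joins c11 at 421 CPM (369 to 479) and c3 at 18.7 (9.97 to 32.0). Among epithelial clusters c7 held 489 CPM (415 to 572), c14 420 (375 to 470), c8 278 (258 to 299), c9 133 (111 to 159) and the glandular c0 52.5 (34.0 to 77.5). RNA quality differed between them. The median share of mitochondrial UMIs was 16.8% in c7, 10.4% in c14, 3.68% in c8, 3.90% in c9 and 7.39% in c0. Its part in the Cxcl1 levels was not tested. Cxcl1 was called lower in c0 than in each of the other 4 clusters, by 2.54-fold (c9) to 9.31-fold (c7), where 13.2% and 24.9% of the genes tested were called lower. Of epithelial cells 39.0% held a UMI, against 2.58% of NK and innate lymphoid cells, at median depths of 6494 and 5864 UMIs. After thinning to 2000 UMIs the shares were 22.0% and 1.14%.

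Cxcl5, a further neutrophil attractant of the chromosome 5 group, was sparse and had 213 of its 221 UMIs in epithelium. Its epithelial level was 41.7 CPM (36.3 to 47.7), and no other class held more than 3 UMIs. The cluster values were 115 CPM in c14, 39.5 in c8, 21.9 in c7, 18.8 in c9 and 0 UMIs in the glandular c0. Against c14 that 0 was at least 18.2-fold lower. These values rest on few cells: 1 cell each held 55 of the 85 UMIs in c14 and 68 of the 103 in c8, and without them the levels were 41.2 and 13.6 CPM. A UMI was found in 9.14% of epithelial and 0.323% of NK and innate lymphoid cells, at median depths of 6494 and 5864 UMIs. Thinned, 3.31% of epithelial cells held a UMI.

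Cxcl2, which acts on the same receptor as Cxcl1, was highest in phagocytes. Its level was 1489 CPM (1422 to 1558) there and 102 (93.7 to 111) in epithelium. T cells stood at 177 CPM, but 1 cell held 19 of their 20 UMIs and the level without it was 9.10. All other classes held 10 UMIs or fewer. A UMI was found in 29.6% of phagocytes and 1.92% of undifferentiated stromal cells, at median depths of 2533 and 3302 UMIs, and thinned in 27.5% and 1.61%. Epithelial clusters c14, c8 and c7 held 153, 136 and 113 CPM, and c9 and c0 held 12.5 and 10.5. The ratio of c8 over c9 was 10.9 (6.17 to 21.3), where 5.02% of genes were called higher.

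The phagocyte class joins 2 clusters that differ in their markers. Cluster c11 (80 cells) is led by Pf4 and the complement genes C1qa, C1qb and C1qc, and its 9 macrophage markers summed to 7684 CPM against 929 in c3. Cluster c3 (190 cells) is led by Ly6c2, S100a9 and S100a8, with 5003 CPM in the 8 monocyte markers, 4526 in the 9 dendritic markers and 458 in the 7 neutrophil markers, of which Ly6g and Camp were at 0. In c11 the neutrophil markers summed to 14.5 CPM.

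Cxcl2 was high in both phagocyte clusters, while Cxcl1, Cxcl10 and Cxcl16 were higher in c11. Cxcl2 stood at 1852 CPM (1741 to 1969) in c11 and 1199 (1119 to 1283) in c3, less than 2-fold apart. Of the 832 UMIs in c3, 4 cells held at least 50%. The cell with the most held 170 UMIs of Cxcl2 among its 2099, or 80991 CPM, together with 43 UMIs of S100a8 and 32 of S100a9 and none of C1qa. The 42 c3 cells with Cxcl2 had 2166 CPM of the neutrophil markers in sum and the 148 without it 109, at median depths of 1624 and 1598 UMIs. The monocyte markers summed to 11517 and 3672 CPM in the same cells, and the dendritic markers to 1410 and 5162. The part of neutrophils in the Cxcl2 level of c3 was not tested.

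Cxcl10, which attracts Cxcr3-bearing T and NK cells, stood at 871 CPM (820 to 925) in phagocytes and 71.1 (64.0 to 78.8) in epithelium, a ratio of 12.2 (10.9 to 13.8). Cluster c11 held 1690 CPM (1583 to 1801) and c3 219 (186 to 257), so that c3 was 7.71-fold lower (6.49 to 9.22), where 6.63% of 3875 genes were called lower. Pericytes (70.2 CPM) and T cells (53.1) did not differ from epithelium beyond counting error, and 1 pericyte held 15 of that class's 18 UMIs. A UMI was found in 51.2% of c11 cells, against 5.41% of decidual cells, at median depths of 6076 and 6840 UMIs. After thinning to 2000 UMIs the shares were 47.1% and 0.763%.

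Epithelial Cxcl10 ran from 57.1 CPM (48.3 to 67.1) in c8 to 111 (88.1 to 137) in c14, with 79.8 in c0, 78.4 in c7 and 71.9 in c9. It was called in no pair of these clusters. In c0 and c7 it rested on 1 cell each, without which the levels were 33.6 and 25.5 CPM. Among NK and innate lymphoid cells, c2, led by Ifng and Klra4, held 69.2 CPM (51.0 to 91.7) and the granzyme-rich c6 10.9 (7.57 to 15.3). The ratio was 6.33 (3.99 to 10.1), and 14.0% of genes were called higher in that comparison.

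Cxcl16 was spread over most cells of c11. It stood there at 855 CPM (779 to 935) with a median over cells of 766 and a UMI in 85.0% of cells, and its top cell held 21 of 473 UMIs. In that cluster 18 cells held at least 50% of the Cxcl16 UMIs, against 11 cells for Cxcr4, 6 for Cxcl10, 5 for Cxcl2 and 3 for Cxcl1. Cluster c3 held 112 CPM (88.8 to 140), 7.61-fold lower (5.97 to 9.79). The classes were ordered phagocytes (442 CPM), epithelium (71.7), mesothelium (32.7) and undifferentiated stroma (11.1), each step larger than counting error. Within epithelium c14 held 216 CPM (184 to 252), above c7 (65.8), c8 (61.3), c0 (25.2) and c9 (13.5). Of NK and innate lymphoid cells 1.61% held a UMI at a median of 5864, so the c11 share lies far above that background.

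**Figure D5:**
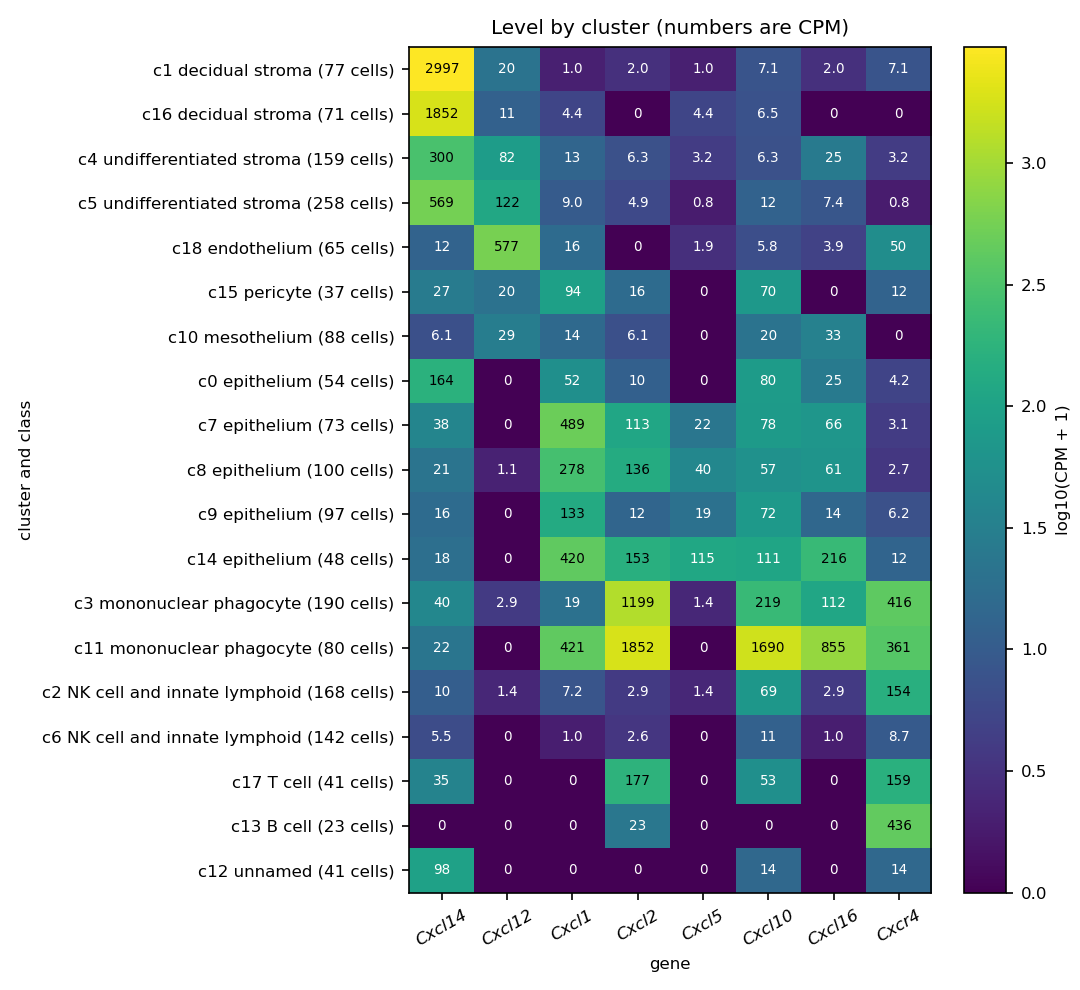
Level of each of the 8 genes in the 19 clusters, as log10(CPM + 1) in colour and CPM in figures, with clusters in rows and genes in columns. Cxcl1, Cxcl10 and Cxcl16 reach 421, 1690 and 855 CPM in c11 against 19, 219 and 112 in c3, while Cxcr4 is at 361 and 416.

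Cxcr4, the receptor of Cxcl12, was a leukocyte transcript with a low endothelial level. B cells held 436 CPM (263 to 682) from 19 UMIs and phagocytes 392 (358 to 428), which did not differ beyond counting error. T cells followed at 159 CPM (94.3 to 252), then endothelium at 50.3 (32.9 to 73.7) and NK and innate lymphoid cells at 35.2 (29.5 to 41.7), the last 2 again not apart. Pericytes (11.7), epithelium (4.90), decidual stroma (4.85) and undifferentiated stroma (1.30) held little and mesothelium 0 UMIs, which allows up to 6.13 CPM. All 7 decidual UMIs lay in 1 cell. Within 1 class the level could still vary widely: NK-like c2 held 154 CPM (126 to 186) and c6 8.68 (5.72 to 12.6), a ratio of 17.8 (11.6 to 28.2). In phagocytes c3 (416 CPM, 370 to 467) and c11 (361, 313 to 415) did not differ beyond counting error.

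A UMI of Cxcr4 was found in 47.4% of phagocytes and 0.480% of undifferentiated stromal cells, at median depths of 2533 and 3302 UMIs. After thinning, the share was 43.6% of phagocytes, 44.4% of 9 B cells, 30.8% of 26 T cells, 11.3% of endothelial cells, 22.8% of c2 cells and 2.13% of c6 cells. The ligand Cxcl12 showed the opposite distribution, with 3 UMIs over phagocytes, NK and innate lymphoid cells, T cells and B cells together. Endothelium alone held 20 UMIs or more of both genes, 298 of Cxcl12 and 26 of Cxcr4.

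Clusters of 1 class were also set against each other. Between the phagocyte clusters c3 and c11, 5 of the 8 genes had enough UMIs, and none was called higher in c3 (9.70% of all genes) and 3 lower (Cxcl1, Cxcl10 and Cxcl16, 6.63%). Cxcl1 was 22.5-fold lower (12.9 to 42.9) in c3. Between the NK-like c2 and c6 both genes with enough UMIs, Cxcl10 and Cxcr4, were called higher in c2 (14.0%) and none lower (16.9%). Between the decidual c1 and c16 Cxcl14 had a ratio of 1.62 and was not called (21.5% of all genes higher, 6.85% lower). Between the undifferentiated c4 and c5 neither Cxcl14 nor Cxcl12 was called (3.19% and 11.0%).

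Apart from Cxcl14, the calls between epithelial clusters fell on the 3 neutrophil attractants and Cxcl16. In c8 all 4 were called higher than in c9 (5.02% of all genes) and none of the 8 lower (2.26%), with ratios of 2.08 for Cxcl1, 10.9 for Cxcl2, 2.11 for Cxcl5 and 4.53 for Cxcl16. That of Cxcl5 rests on 1 cell. The same 4 were called lower in c9 than in c14 (12.9%) and none higher (4.09%). Against c14, Cxcl5 and Cxcl16 were called lower in c8 (11.0%, with 3.99% of all genes higher) and in c7 (30.3%, with 12.6% higher). All Cxcl5 calls against c14 lean on 1 cell, which held 55 of its 85 UMIs. Without that cell c14 stood at 41.2 CPM, against 39.5 in c8, 21.9 in c7 and 18.8 in c9. None of the 8 was called between c7 and c8 (13.3% of all genes higher, 18.7% lower), and Cxcl1 alone between c7 and c9 (higher in c7, ratio 3.67, with 17.4% of all genes higher and 24.5% lower). The glandular c0 had Cxcl14 called higher than in each of the other 4, as given above, and Cxcl1, Cxcl2, Cxcl5 and Cxcl16 called lower than in c8 (14.5%) and in c14 (22.8%). In c8 1 cell held 68 of the 103 Cxcl5 UMIs.

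For some pairs of the 8 genes the second was more frequent in cells with the first than in those without it, and for others it was not. In c11, 16 of the 19 cells with Cxcl1 also held Cxcl2 (84.2%), against 36.1% of the cells without Cxcl1, at similar median depths (6431 and 6052 UMIs). Cxcl10 was found in 68.4% of the c11 cells with Cxcl2 and 35.7% of those without (6442 and 5881 UMIs). In c3, 13 of the 42 cells with Cxcl2 held Cxcl10, against 6.08% of those without, at 1624 and 1598 UMIs. In the epithelial cluster c14, 72.0% of cells with Cxcl1 and 13.0% of those without it held Cxcl2, but the first were deeper (13113 against 5271 UMIs). In c8 the shares were 23.8% and 8.11%. Cxcl16 was found in c11 in 84.2% of cells with Cxcl1 and 85.2% of those without, and in c3 in 14.3% of cells with Cxcl2 and 17.6% of those without. In c8 Cxcl16 was found in 68.3% and 70.3%, Cxcl10 in 11.1% and 13.5%, and Cxcl5 in 14.3% and 18.9% of cells with and without Cxcl1. At least 3 of the 8 genes were found in 56.2% of c11, 45.8% of c14 and 40.0% of c8 cells, and in 1.20% of undifferentiated and 2.70% of decidual cells. These are sparse counts from 1 library, and the part of depth was not tested.

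Across the 19 clusters, log2(CPM + 5) of Cxcl10 went with that of Cxcl2 (Pearson r 0.79) and Cxcl16 (0.76), and Cxcl1 with Cxcl16 (0.77), Cxcl10 (0.69) and Cxcl5 (0.67). Cxcl12 and Cxcr4 had r -0.25, and Cxcl14 was negative or weak with all others (-0.45 to 0.28). The clusters share 1 library and differ in depth, so these are descriptions. Of 10588 other genes with 100 or more UMIs, the 3 whose levels were most like each of the 8 were as follows. For Cxcl14 they were Penk (r 0.95), Tac2 (0.94) and Pkdcc (0.92), and for Cxcl12 Adamts5 (0.94), Kctd12b (0.94) and Prex2 (0.93). For Cxcl1 they were Plau (0.90), Rcan1 (0.89) and Paox (0.86), and for Cxcl5 Serinc2 (0.96), Il1f6 (0.94) and Fhod3 (0.94). For Cxcl2 they were Cdkn1a (0.85), Il1rn (0.85) and Sowahc (0.83), and for Cxcl10 Il1rn (0.83), Cd14 (0.82) and Txnrd1 (0.81). For Cxcl16 they were Tbc1d9 (0.91), Il1a (0.89) and Plau (0.86), and for Cxcr4 Slfn2 (0.93), Snx20 (0.92) and Phf11b (0.92).

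The receptors of these ligands were sparse. Cxcr2, the receptor of Cxcl1, Cxcl2 and Cxcl5, had 13 UMIs in 13 cells, 1 of them in c3 and 1 in c11. Cxcr3, the receptor of Cxcl10, had 31 UMIs and stood highest in T cells (53.1 CPM, 19.5 to 116). Cxcr6, the receptor of Cxcl16, had 35 of its 47 UMIs in T cells (310 CPM, 216 to 431), in 10 of 41 cells, and 0 in phagocytes. Cxcr5, a receptor of B cells, had 6 UMIs, 5 of them in B cells (115 CPM). Of the scavenging receptors Ackr3 was highest in decidual stroma, as given above, and Ackr1, which is carried by venules and erythroid cells, had 13 UMIs.

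Among the other CXC ligands Pf4, the platelet factor that macrophages also make, stood at 422 CPM in phagocytes, and Cxcl3, a close relative of Cxcl2, at 28.9 there. Cxcl9, an interferon-inducible ligand like Cxcl10, had 7 UMIs, all in phagocytes, and Cxcl15 4 UMIs. Of 54 other pathway genes listed, 52 were in the matrix, and 39 of them had enough UMIs against all other cells. In phagocytes 21 of the 39 were called higher and 9 lower, where 11.1% and 30.2% of all genes were. Their median log2 ratio was 1.57, where that of all genes was -0.46. Those higher include the cytokine gene Il1b (1922 CPM), the mRNA decay factor gene Zfp36 (1298) and Cd74 (5030), a chaperone of class II antigen presentation and receptor of Mif. In epithelium 9 were called higher and 24 lower, where 11.4% and 27.8% of all genes were.

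In decidual against undifferentiated stroma 19 of the 52 had enough UMIs, 3 were called higher and 4 lower (8.75% and 18.3% of all genes), and their median log2 ratio of -0.25 was near that of all genes. Higher were Ackr3, the gene of dipeptidyl peptidase Dpp4, which trims the start of Cxcl12 and Cxcl10 (79.7 against 4.56 CPM, ratio 17.5, 8.21 to 44.4), and the membrane endopeptidase gene Mme (132 against 36.5). Lower were the matrix protease gene Mmp2, which can cleave Cxcl12 (78.3 against 422 CPM), and the receptor regulators Arrb1 (11.1 against 32.6), Rgs2 (761 against 1846) and Itch (77.6 against 200). Dpp4 was highest in mesothelium (335 CPM). Of the interferon-inducible list Gbp2 was highest in mesothelium (397 CPM). Ifng itself stood at 51.2 CPM in NK and innate lymphoid cells, and 1 cell held 97 of its 203 UMIs.

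In sum, the NF-kB and inflammatory list was highest in the phagocyte clusters. Its 9 genes summed to 9100 CPM in c11, 4216 in c3, 2917 in c8, 2783 in c14, 2261 in c7, 1396 in c9 and 937 in c0, and to 203 in c1 and 263 in c5. By class, Nfkbia was highest in epithelium (1025 CPM against 936 in phagocytes) and Tnfaip3 in T cells (1229 against 579). The other genes of the list were highest in phagocytes. The list was also at 2412 CPM in B cells, 2370 in T cells and 2144 in c2, where Cxcl1 had 0, 0 and 5 UMIs. Those counts of 0 allow up to 68.9 CPM in B cells and 26.5 in T cells. Cxcl1 was at 18.7 CPM in c3 and 489 in c7. The part of the list genes in the level of Cxcl1 was not tested. In c3 the 9 list genes summed to 11771 CPM in cells with Cxcl2 and 2672 in those without, and the 8 genes of the interferon-inducible list to 1690 and 783. In c11 cells with and without Cxcl10 that interferon-inducible list summed to 752 and 309 CPM, and in c2 to 1487 and 538. Its 8 genes include Ifng itself, the first leading gene of c2, and 1 cell held 97 of the 203 Ifng UMIs. The part of Ifng, or of that cell, in these sums was not tested. The cells with Cxcl10 were somewhat deeper, at median depths of 6463 against 5609 UMIs in c11 and 5880 against 3684 in c2, and the part of depth was not tested.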

How the data were processed

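The library was analysed from the deposited UMI counts per gene and cell barcode, made by the authors with Cell Ranger (version 4.0.0, per the file headers) on mm10, per the submitters' processing notes. For antisense reads and reads that match several genes, the counting rule was not stated. Each of the 2775 barcodes had at least 500 UMIs, and 40 features with a repeated symbol were summed with it, giving 32247 symbols. Barcodes with at least 500 detected genes (2382), at most 20% mitochondrial UMIs (2064) or both (1825) were counted, and 13 of the 1825 (0.712%) were removed as doublets by Scrublet at an expected rate of 5%. The 1812 cells kept held 14622717 UMIs.

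Cells were clustered with scanpy 1.11.5 (2000 variable genes, 30 components, 15 neighbours, Leiden resolution 1, seed 0), leaving out 98 genes (chemokines, their receptors and the pathway list). A cluster took the name of the best of 23 marker sets (174 genes) if 3 of its markers were found in at least 10% of cells. Sets were compared by the mean log2 level of their markers relative to the median over clusters. Clusters whose best set was stromal were compared again on the 2 stromal sets only, relative to the median over those clusters. The split into decidual and undifferentiated stroma is therefore relative among the stromal clusters. A cluster stayed unnamed if its median depth was under its library's divided by 3 with none of its own markers in its top 10 genes by fold, or if those 10 held at least 2 markers of another class and more than of its own. That minimum of 2 was set after the clusters were seen. Monocyte, macrophage and dendritic sets were joined as mononuclear phagocytes, glandular epithelium was joined with epithelium, and lymphatic endothelium with endothelium. The analysis used Python 3.11.15, numpy 2.4.6, scipy 1.17.1, pandas 2.3.3, anndata 0.12.19, igraph 0.11.9 and scikit-learn 1.9.0.

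Levels are summed UMIs scaled to CPM with exact Poisson 95% intervals, ratios have exact conditional binomial intervals, and shares of cells have Clopper-Pearson intervals. The limit that a count of 0 allows is 3 counts. Genes with fewer than 50 UMIs over both sides of a comparison were not called. On simulated counts for decidual against undifferentiated stroma over 7455 genes, 97.0% of 66 genes changed 3-fold and 0.234% of 7255 unchanged genes were called. Of 67 genes changed 1.5-fold, 11.9% were called. These rates hold for the simulated counts and do not measure the spread between animals. Median log2 ratios are taken with a count of 0 set to that limit. The genes named are the 8, Cxcr2, Cxcr3, Cxcr6, Ackr3, Cxcl15 and Cxcl9, the 2 genes with the highest level in any class in each of the 7 groups of the pathway list, and for each of the 8 the 3 genes with the highest Pearson r (100 or more UMIs, clusters of 20 or more cells). Of these, 1 gene is not reported here. Mme, Arrb1, Itch, Ifng, Nfkbia and Tnfaip3 are outside that rule and were chosen after their values were seen. The genes and lists were chosen with earlier results of these data known.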

Additional observations from a re-analysis of the deposited data

How the results depend on the processing

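Filters, doublet removal, clustering resolution and seed, the scaling, the call rule, the pseudocount and the thinning depth were each changed in turn. Leaving out the cell with the most UMIs and a stricter naming of clusters, which leaves c2 and c14 unnamed, were alternatives chosen after seeing the data. Both stromal ratios kept their direction and call in all 24 values, between 3.81 (no cell filter) and 6.85 (at most 10% mitochondrial UMIs) for Cxcl14 and between 0.130 and 0.231 for Cxcl12. The stromal cells did change class: decidual and undifferentiated stroma had 338 and 141 cells with at least 1000 detected genes and 225 and 174 at resolution 2, against 148 and 417, with Cxcl14 ratios of 5.09 and 4.89. With at most 10% mitochondrial UMIs the 2 stromal classes had 180 and 267 cells. Of 96 levels in the highest class 21 moved beyond the counting interval. Of 286 counts of the 8 genes called, 6 moved. Genes lower in epithelium were 5 rather than 3 with at most 10% mitochondrial UMIs and 5 at a fold of 1.5. Genes lower in B cells were 2 rather than 4 with at least 1000 detected genes and 7 with the mean over cells of per-cell CPM, which has no interval. Genes higher in T cells were 0 rather than 1 with that mean, and genes higher in undifferentiated stroma 2 rather than 1 at a fold of 1.5. The highest class of Cxcr4 became phagocytes with no cell filter and with the mean over cells. Without its top cell the highest-class level of Cxcl12 was 338 rather than 577 CPM and that of Cxcl5 28.6 rather than 41.7. Thinning to 1000 UMIs moved 5 of the 8 thinned shares in the highest class beyond their interval, with that of Cxcl14 at 59.4%. The cause of these shifts was not tested. With a pseudocount of 1 CPM, 1 of the 3 genes most like Cxcl12, 1 of those most like Cxcl5 and 2 or 3 of those most like each other gene were the same. No paired analysis was possible because 1 library was analysed. The depth, a median of 4509.5 UMIs per cell, limits the sparse genes and the B and T cell values.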
